A study of Mus with 2 samples.

Results

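The brush border is the carpet of microvilli on the apical face of intestinal epithelial cells, and 10 genes for its scaffold, its intermicrovillar adhesion and its surface coat are described here in the mouse distal ileum. The genes were chosen by name (Cdhr2, Cdhr5, Ush1c, Vil1, Pls1, Eps8, Myo1a, Ezr, Muc3 and Muc13) among 8989 genes listed in any deposited table. Earlier results of these data were known when they were chosen, which limits every count set beside all genes. All 10 were listed in each of the 5 cell type sheets, which makes 50 entries, and 9 of them filled 21 of the 2096 entries of the cluster marker table. Epithelial cells were sorted by flow cytometry, and their RNA was read by inDrops, which labels the RNA of single cells inside droplets. One sample came from nociceptor-ablated mice (Nav1.8Cre+/-DTA+/-), in which the sensory neuron driver Nav1.8 Cre turns on diphtheria toxin A, and the other from littermate controls (Nav1.8Cre-/-DTA+/-) that carry the toxin allele without Cre. Both samples were labelled as baseline. Each pooled 3 male mice of 8 weeks, so the spread between animals cannot be seen and no difference between genotypes was tested.

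Microvilli are held up by a core of parallel actin filaments that bundling proteins cross-link. Their tips are joined by a pair of protocadherins whose cytoplasmic tails are anchored by scaffold proteins, and this adhesion packs microvilli into a dense, even array. Motor and linker proteins tie the core to the plasma membrane, which carries a coat of transmembrane mucins and digestive enzymes. In the ileum the brush border is densest on absorptive enterocytes of the villus and is assembled as cells leave the crypt, while tuft cells bear a distinctive apical tuft of long microvilli.

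The genes lie on 9 chromosomes of the mouse genome, all protein-coding in the RefSeq annotation of GRCm38, the assembly also called mm10. Of the adhesion genes, Cdhr2 (ENSMUSG00000034918) spans chromosome 13 from 54701463 to 54736662, Cdhr5 (ENSMUSG00000025497) chromosome 7 from 141269080 to 141276795 and Ush1c (ENSMUSG00000030838) chromosome 7 from 46195350 to 46238490. The actin core genes Vil1 (ENSMUSG00000026175), Pls1 (ENSMUSG00000049493) and Eps8 (ENSMUSG00000015766) lie on chromosome 1 from 74409384 to 74435560, on chromosome 9 from 95752642 to 95845306 and on chromosome 6 from 137477245 to 137649397. Myo1a (ENSMUSG00000025401) occupies chromosome 10 from 127703436 to 127720940 and Ezr (ENSMUSG00000052397) chromosome 17 from 6738131 to 6782780. The mucin genes Muc3 (ENSMUSG00000037390) and Muc13 (ENSMUSG00000022824) are on chromosome 5 from 137134924 to 137166048 and on chromosome 16 from 33794037 to 33819929. In that annotation Vil1 overlaps Usp37, Muc3 overlaps Gm40348 and Muc13 overlaps Gm15658, and the related gene Muc3a lies at higher coordinates than Muc3 on chromosome 5 from 137208805 to 137212545. Whether reads were assigned by strand, or split between related genes, is not stated in the sources used here, so the values of these 3 members are less certain.

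No sheet says which genotype is its first group of cells, so the first is called group 1 and the second group 2, and a fold change gives no direction of nociceptor loss. A fold change is group 1 over group 2, since where detection was more than 10 percentage points apart, at least 96.4% of genes in every sheet had a fold change of the same sign. Enteroendocrine and tuft genes detected in no cell of a group still had finite fold changes. An offset thus lies behind those values, of a size that is not given. Ratios printed here restate the deposited log2 values, and with an offset they are not ratios of mean expression. The sheets hold between 3425 (enterocytes) and 6764 (tuft cells) named genes. They give neither cell numbers nor depth, and no interval was set on any value. Detection shares were coarse in enteroendocrine cells, with 35 distinct values in group 1 and 41 in group 2. Tuft shares took 19 values in group 1 and 8 in group 2, in steps of about 5.6 and 14.3 percentage points. Few cells thus lie behind both sheets, the fewest behind group 2 of the tuft sheet. A single cell of that group moved a share by about 14.3 percentage points. Defining markers were listed in their own sheets, with 8 of 10 for enterocytes and 6 of 6 for stem cells. The counts were 8 of 8 for goblet, 9 of 9 for enteroendocrine and 7 of 8 for tuft cells. A listing alone did not separate cell types, since the tuft sheet also listed 9 of 10 enterocyte and 8 of 8 goblet markers. Of the 8 goblet markers, 7 were also listed in enterocytes, in stem cells and in enteroendocrine cells. Of the 8 tuft markers, 1 was listed in stem, goblet and enteroendocrine cells and 0 in enterocytes. No marker of T, B or myeloid cells was listed in any sheet. Of 5 stromal markers, 2 were listed in enteroendocrine cells and none in the other sheets. Fabp6, the bile acid binding protein of ileal enterocytes, was detected in at least 99.5% of both groups in every sheet of the authors' deposited table, so detection outside enterocytes was not separated from free RNA.

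Across cell types, most of the genes were detected most often in enterocytes. The authors' deposited table gave Muc13, a transmembrane mucin, in 96.9% of group 1 and 95.9% of group 2 enterocytes, the highest of the 10, and Ush1c in 31.2% and 31.8%, the lowest. By the mean of both groups, 8 of the 10 genes had their highest share in enterocytes, and Cdhr2 and Cdhr5 in tuft cells, where their ranges overlapped those of enterocytes. For Myo1a and Muc13 the range in enterocytes overlapped that of the next cell type. The lowest share fell in stem cells for 4 genes (Cdhr2, Cdhr5, Ush1c and Eps8) and in tuft cells for 2 (Muc3 and Pls1). For 4 it fell in enteroendocrine cells (Vil1, Myo1a, Muc13 and Ezr). The lowest range overlapped that of the next cell type for Ush1c, Eps8, Vil1, Muc13 and Pls1. As the mean of both groups, Ush1c varied least, from 24.3% in stem cells to 31.5% in enterocytes, while Muc3 varied from 28.2% in tuft cells to 82.2% in enterocytes. Shares near 100% leave little room to differ, and a share also depends on depth, so these orders describe the sheets and not RNA per cell.

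**Figure D1:**
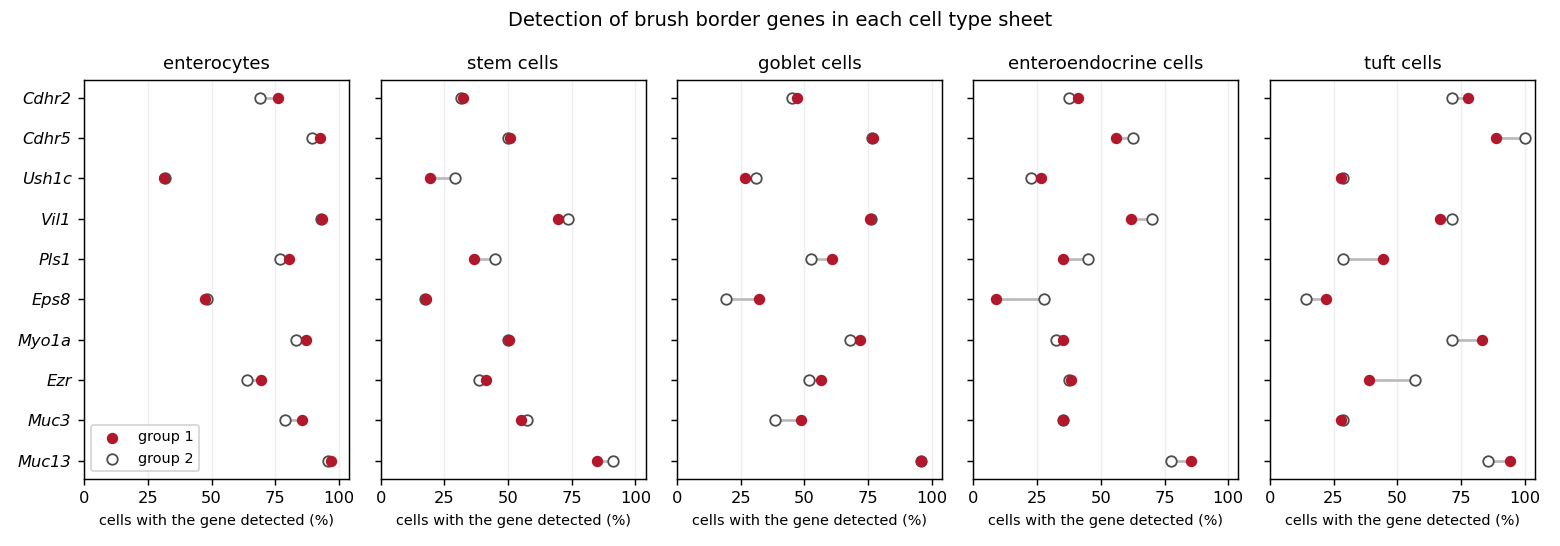
Share of cells in which each of the 10 brush border genes was detected (percent, x axis), for group 1 (filled) and group 2 (open) in each of the 5 cell type sheets. In enterocytes the shares run from 31.2% for Ush1c to 96.9% for Muc13 in group 1, and the widest gap between groups is that of Eps8 in enteroendocrine cells, at 8.8% in group 1 and 27.5% in group 2.

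Cdhr2, the protocadherin that forms one side of the bond between microvillar tips, had a fold change above 0 in all 5 sheets and kept that sign with either alternative zero point. In enterocytes the authors' deposited table listed it in 76.2% of group 1 and 68.9% of group 2 cells, with a log2 fold change of 0.30 (a ratio of 1.23), the fifth highest of the 3425 genes. Tuft cells had it in 77.8% of group 1 and 71.4% of group 2, with a log2 fold change of 0.31, per the authors' deposited table. Group 1 was thus the higher group for Cdhr2 in both measures in both cell types. In tuft cells, though, the gap of 6.4 percentage points was smaller than the step made by a single group 2 cell. The order of detection there is therefore not firm. In enteroendocrine cells it was in 41.2% of group 1 and 37.5% of group 2, with 0.21, per the authors' deposited table. Goblet cells, with 47.2% of group 1 and 45.2% of group 2 and a log2 fold change of 0.12, and stem cells, with 32.2% and 31.4% and 0.04, had the smallest differences for Cdhr2 per the authors' deposited table. The stem cell value still lay above that of 98.3% of the genes of its sheet.

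Cdhr5, the partner protocadherin with a mucin-like region, differed in sign between sheets. Goblet cells had nearly equal detection per the authors' deposited table, 76.9% of group 1 and 76.5% of group 2, but a log2 fold change of 0.18. For enterocytes the authors' deposited table gave 92.6% of group 1 and 89.5% of group 2 with 0.07, and for stem cells 50.8% and 50.1% with 0.01. Group 1 was lower in enteroendocrine cells, at 55.9% against 62.5% of group 2 and a log2 fold change of -0.25 per the authors' deposited table. Cdhr5 in tuft cells was, per the authors' deposited table, in 88.9% of group 1 and 100% of group 2, with -0.08. That last value turned to 0.03 against the median of all tuft genes.

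Ush1c encodes harmonin, the scaffold that binds the tails of both protocadherins, and its fold changes differed in sign from those of Cdhr2. By the authors' deposited table its log2 fold change was -0.04 (enterocytes), -0.11 (stem), -0.12 (goblet), -0.01 (enteroendocrine) and -0.18 (tuft). All 5 values lay below 0 as deposited, but 4 of them no longer did under another zero point: enteroendocrine cells at 0.05 against the median of all genes, and enterocytes at 0.02, stem cells at 0.09 and tuft cells at 0.15 against that of genes seen in 70% or more of each group. Detection differed most in stem cells, at 19.5% of group 1 and 29.1% of group 2 per the authors' deposited table. It was in 26.7% of group 1 and 31.0% of group 2 goblet cells, 26.5% and 22.5% of enteroendocrine cells and 27.8% and 28.6% of tuft cells per the authors' deposited table. Ush1c was the least detected of the 10 genes in enterocytes.

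Vil1 encodes villin, the actin bundling and severing protein used as a marker of the brush border. Enterocytes had 93.2% in group 1 and 92.8% in group 2 and a log2 fold change of 0.06 per the authors' deposited table. For stem cells the authors' deposited table gave 69.8% of group 1 and 73.7% of group 2 with -0.07, at the median of all stem cell genes. Goblet cells were at 75.9% and 76.2% with 0.07, and enteroendocrine cells at 61.8% and 70% with -0.11, per the authors' deposited table. The lowest fold change of Vil1 was that in tuft cells, -0.41 on the log2 scale (a ratio of 0.75), with 66.7% of group 1 and 71.4% of group 2, per the authors' deposited table. Only 10.4% of tuft genes were lower.

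Pls1 encodes plastin 1 (fimbrin), a second actin bundler of the microvillar core. Goblet cells had it in 61.0% of group 1 and 52.4% of group 2, with a log2 fold change of 0.19, per the authors' deposited table. Enteroendocrine cells went the other way, with 35.3% of group 1, 45.0% of group 2 and -0.29 per the authors' deposited table. In enterocytes it was in 80.3% of group 1 and 76.7% of group 2 with 0.07, and in stem cells in 36.7% and 44.8% with -0.05, per the authors' deposited table. The tuft value was 0.22, with 44.4% of group 1 and 28.6% of group 2, per the authors' deposited table. It was identical to the log2 fold changes of 389 other tuft genes, Muc3 among them.

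Eps8 encodes a capping and bundling protein of microvillar tips that regulates microvillus length. Enteroendocrine cells gave the widest gap of the whole set, 8.8% of group 1 against 27.5% of group 2, with a log2 fold change of -0.41 per the authors' deposited table. In goblet cells the order was opposite, 32.3% of group 1 and 19.4% of group 2 with 0.14 per the authors' deposited table. Eps8 was close to level in enterocytes and stem cells: the authors' deposited table listed 47.6% of group 1 and 48.3% of group 2 enterocytes with 0.01, and 17.9% and 17.5% of stem cells with -0.02. In tuft cells it was in 22.2% of group 1 and 14.3% of group 2 with 0.10, per the authors' deposited table. That gap in detection was smaller than the step made by a single group 2 tuft cell. The tuft value lay just under the fold used for counting.

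Myo1a encodes the class I myosin that links the actin core to the microvillar membrane. Its highest value was in tuft cells, with 83.3% of group 1 and 71.4% of group 2 and a log2 fold change of 0.47 (a ratio of 1.39) per the authors' deposited table. Goblet cells had 71.8% of group 1 and 67.7% of group 2 with 0.21 per the authors' deposited table, above 99% of the genes of that sheet. For enterocytes the authors' deposited table had 87.2% of group 1 and 83.0% of group 2 with 0.08, and for stem cells 50.3% and 50.1% with 0.05. Enteroendocrine cells had 35.3% of group 1 and 32.5% of group 2 but a log2 fold change of -0.08 per the authors' deposited table, so detection and fold change differed in sign there.

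Ezr encodes ezrin, which joins actin filaments to membrane proteins. The authors' deposited table gave 69.3% of group 1 and 63.8% of group 2 enterocytes with a log2 fold change of 0.03. In goblet cells it was in 56.4% of group 1 and 51.7% of group 2 with 0.11 per the authors' deposited table. Stem cells had 41.3% and 38.7% with a log2 fold change of -0.003, and enteroendocrine cells 38.2% and 37.5% with -0.06, per the authors' deposited table. Tuft cells had the reverse order of detection, 38.9% of group 1 and 57.1% of group 2, with a log2 fold change of 0.01 per the authors' deposited table. Ezr differed less between the groups than Myo1a, the other linker, in each sheet by the size of its fold change. By detection it was the reverse in every sheet but that of enteroendocrine cells, with the wider gap for Ezr.

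Muc3 encodes a transmembrane mucin of the enterocyte glycocalyx, and with Cdhr2 it had the largest differences in absorptive cells. Enterocytes had 85.7% in group 1 and 78.7% in group 2 with a log2 fold change of 0.23 per the authors' deposited table, the eighth highest of the sheet. In goblet cells the authors' deposited table gave 48.7% of group 1 and 38.4% of group 2 with 0.30 (a ratio of 1.23). Stem cells were close to level, at 55.3% of group 1 and 57.4% of group 2 with -0.02 per the authors' deposited table, and above the median of all genes of that sheet by 0.05. Enteroendocrine cells had 35.3% and 35.0% with -0.08, and tuft cells 27.8% and 28.6% with 0.22, per the authors' deposited table. The related gene Muc3a, looked at after its values were seen, was at 0.03 in goblet cells with 32.8% of group 1 and 31.0% of group 2 per the authors' deposited table.

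Muc13, the mucin detected in most cells of every type, had small fold changes of both signs. It was at 0.05 in enterocytes and 0.06 in goblet cells, with 95.9% of group 1 and 95.6% of group 2 goblet cells, per the authors' deposited table. Stem cells had 85.0% of group 1 and 91.2% of group 2 with a log2 fold change of -0.17 per the authors' deposited table. In enteroendocrine cells it was at -0.12 although detected in 85.3% of group 1 and 77.5% of group 2, and in tuft cells at -0.13 with 94.4% and 85.7%, per the authors' deposited table. Against genes seen in 70% or more of each group, the stem and tuft cell values turned to 0.03 and 0.20.

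**Figure D2:**
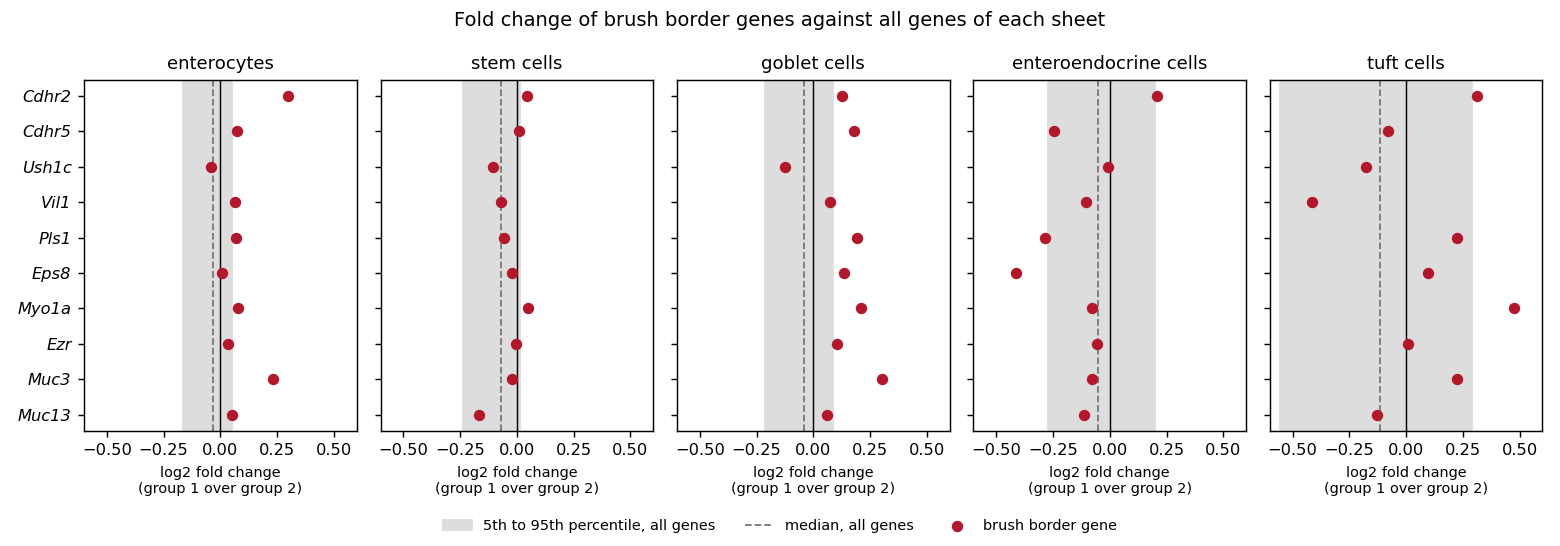
Log2 fold change of group 1 over group 2 (x axis) for each of the 10 genes in each cell type sheet, with the 5th to 95th percentile of all genes of the sheet (grey), their median (dashed) and 0 (solid line). In goblet cells 7 of the 10 genes lie at or above 0.10, and in enteroendocrine cells 5 lie at or below -0.10.

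The median of the 10 genes lay above that of all genes of the sheet in enterocytes, stem, goblet and tuft cells, and below it by a small margin in enteroendocrine cells. A log2 fold change of 0.10, a ratio of 1.07, was used to count genes. In goblet cells 7 of the 10 genes were at or above 0.10 (Muc3, Myo1a, Pls1, Cdhr5, Eps8, Cdhr2 and Ezr), where 3.95% of all genes of the sheet were, and 1 (Ush1c) was at or below -0.10, where 23.1% were. The median of the 10 was 0.13, against -0.04 for all goblet cell genes. Of the 10, 9 were above 0, as were 27.3% of all genes, and 8 were detected in a larger share of group 1, as were 28.4%.

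In enterocytes 2 of the 10 genes (Cdhr2 and Muc3) were at or above 0.10, where 1.84% of all genes were, and none was at or below -0.10, where 14.3% were. Smaller values leaned the same way: 9 of the 10 were above 0, as were 21.4% of all genes, and 8 of the 10 were detected in a larger share of group 1, as were 26.5% of all genes. The median of the 10 was 0.07, against -0.03 for all genes. Against genes seen in 70% or more of each group, whose median was -0.07, 8 of the 10 reached 0.10.

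In stem cells none of the 10 reached 0.10, where 0.315% of all genes did, and 2 (Muc13 and Ush1c) were at or below -0.10, where 31.5% of all genes were. Their median was -0.02, against -0.07 for all stem cell genes, so it turned to 0.05 when set against that median. It was 0.17 against genes seen in 70% or more of each group, whose median was -0.20. Of the 10 genes, 3 were above 0, against 8.16% of all genes, and 5 were detected in a larger share of group 1, against 7.77%.

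In enteroendocrine cells the counts as deposited were near the background. Of the 10 genes, 5 (Eps8, Pls1, Cdhr5, Muc13 and Vil1) were at or below -0.10, where 34.8% of all genes were, and 1 (Cdhr2) was at or above 0.10, where 16.1% were. The median of the 10 was -0.09, against -0.05 for all genes of the sheet and -0.09 for those seen in 25% or more of one group, as all 10 were. Cdhr2 alone was above 0, where 35.3% of all genes were. Yet 6 of the 10 were detected in a larger share of group 1, against 32.6% of all genes. Against genes seen in 70% or more of each group, whose median was 0.03, 7 of the 10 were at or below -0.10. In tuft cells 4 of the 10 (Myo1a, Cdhr2, Pls1 and Muc3) were at or above 0.10, where 24.2% of all genes were, and 3 (Vil1, Ush1c and Muc13) at or below -0.10, where 58.9% were. The tuft median of the 10 was 0.05, against -0.11 for all genes and -0.33 for genes seen in 70% or more of each group. Of the 10, 6 were above 0 there, against 31.3% of all genes, and 5 were detected in a larger share of group 1, against 31.1%. Every sheet compares cells of the same mouse pools, so values in different cell types are not independent of each other.

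With the fold set at 0.25, Cdhr2 was the 1 gene left on the higher side in enterocytes (0.204% of all genes) and Muc3 the 1 in goblet cells (0.617%), while tuft cells kept Myo1a and Cdhr2 (6.59%). On the lower side Eps8 and Pls1 were left in enteroendocrine cells (6.47% of all genes), with Cdhr5 just short of it, and Vil1 in tuft cells (22.4%). None of the 10 reached it on the higher side in stem cells (0.0185%) or enteroendocrine cells (2.23%), or on the lower side in enterocytes (1.55%), stem cells (4.39%) or goblet cells (2.76%). At the fold of 0.10 the counts of the 10 were the same when only genes seen in at least 25% of one group were counted, but the tuft median of those left among the 10 was 0.0067. Among all such genes 4.83% of enterocyte, 0.729% of stem, 6.55% of goblet, 19.8% of enteroendocrine and 14.6% of tuft genes were then at or above 0.10, and 34.3%, 63.4%, 44.4%, 46.9% and 71.2% at or below -0.10.

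Enterocyte markers stood beside the 10 genes in each sheet. In goblet cells 7 of the 8 listed enterocyte markers were at or above 0.10, beside 3.95% of all genes, with a median of 0.30. None was at or below -0.10, where 23.1% of all genes were. The authors' deposited table had the apolipoprotein gene Apoa1 in 92.8% of group 1 and 86.4% of group 2 goblet cells with a log2 fold change of 1.29, and the aminopeptidase gene Anpep in 68.2% and 63.9% with 0.45. In enteroendocrine cells 5 of 7 enterocyte markers were at or below -0.10 (median -0.36), beside 34.8% of all genes. None was at or above 0.10, where 16.1% of all genes were. In enterocytes 6 of 8 were at or above 0.10 (median 0.17), beside 1.84% of all genes. In stem cells 3 of 7 were (median 0.08), beside 0.315%. None was at or below -0.10 in either sheet. In tuft cells 7 of 9 were at or above 0.10 (median 0.34) and 1 at or below -0.10, beside 24.2% and 58.9%. The part of enterocyte RNA in the values of the 10 genes outside enterocytes was not tested. Of genes known for their position along the villus, 7 of 7 lower villus genes were listed in enterocytes (median -0.09). Of these, 3 were at or below -0.10, beside 14.3% of all genes, and none at or above 0.10, beside 1.84%. Of 10 villus tip genes, 5 were listed there (median 0.04). At or below -0.10 was 1 of them and at or above 0.10 none, beside the same shares of all genes. A shift in the position of the sampled enterocytes along the villus was not tested.

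Other brush border genes lay on both sides of the fold in every sheet. Of 73 other genes in 3 lists, 58 were listed in at least 1 sheet. In enterocytes 47 were listed, and their median was -0.03, like that of all genes. Of these 47, 3 were at or above 0.10 and 13 at or below -0.10, beside 1.84% and 14.3% of all genes. Stem cells had 1 at or above 0.10 and 18 at or below -0.10 of 47, beside 0.315% and 31.5% of all genes. Goblet cells had 9 and 12 of 46, beside 3.95% and 23.1%. Enteroendocrine cells had 6 and 21 of 47, beside 16.1% and 34.8%, and tuft cells 20 and 23 of 54, beside 24.2% and 58.9%. Of the genes of the terminal web, the actin mesh under the microvilli, and of apical delivery, 10 of 25 in enterocytes were at or below -0.10, beside 14.3% of all genes and 34.3% of those seen in 25% or more of one group. The same list had 14 of 27 in stem cells, beside 31.5% and 63.4%, and 9 of 28 in goblet cells, beside 23.1% and 44.4%.

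Among the single genes of those lists, Pfn1 and Actg1 were among the lowest in the enterocyte, stem and goblet sheets. Pfn1, which encodes the actin monomer binding protein profilin 1, was at -0.28 in enterocytes, with 71.0% of group 1 and 73.5% of group 2, per the authors' deposited table. It was at -0.46 in stem cells and -0.33 in goblet cells per the authors' deposited table. Actg1, the cytoplasmic gamma actin gene, was at -0.22 in enterocytes (56.4% of group 1 and 57.7% of group 2), -0.45 in stem cells (78.2% and 90.6%) and -0.44 in goblet cells (64.1% and 79.3%) per the authors' deposited table. Actb, the beta actin gene, looked up after the values were seen, was at 0.08 in enterocytes and -0.14 in stem cells per the authors' deposited table. Cfl1, the gene of the filament severing protein cofilin 1, was at -0.29 in stem cells and -0.64 in tuft cells per the authors' deposited table. Krt19, a keratin gene of simple epithelia, was at -0.29 in enterocytes per the authors' deposited table. In tuft cells Krt19 was at -1.30 although detected in 61.1% of group 1 and 28.6% of group 2, so both measures differed in sign, per the authors' deposited table. Krt20, a keratin of differentiated cells, was at 0.25 (goblet), -0.44 (enteroendocrine) and 1.42 (tuft), per the authors' deposited table.

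Genes of the adhesion complex and the bundlers beyond the 10 were mostly within 0.10 of 0 in enterocytes, but not in tuft cells. Of 14 listed in enterocytes (median -0.002), none was at or above 0.10 and 2 were at or below -0.10. Of all enterocyte genes 1.84% and 14.3% were. Myo7b, the myosin of the adhesion complex at microvillar tips, also looked up after its values were seen, was at 0.05 in enterocytes with 50.8% of group 1 and 47.6% of group 2, per the authors' deposited table. Baiap2l2, which encodes an I-BAR protein that binds curved membranes, was at -0.25 in enterocytes, in 26.3% of group 1 and 38.8% of group 2, per the authors' deposited table. Tmigd1, an apical adhesion gene, was at 0.25 in goblet cells with 32.8% of group 1 and 28.6% of group 2 per the authors' deposited table. Of 14 genes of this list in enteroendocrine cells, 1 was at or above 0.10 and 6 were at or below -0.10, where 16.1% and 34.8% of all genes were. Of 15 in the tuft sheet, 8 were at or above 0.10 and 4 at or below -0.10, where 24.2% and 58.9% of all genes were. Espn, the bundler espin, was in that sheet at 0.57 with 77.8% of group 1 and 85.7% of group 2 per the authors' deposited table. Of 8 linkers and surface genes in enterocytes (median 0.02), 2 were at or above 0.10 and 1 at or below -0.10. The shares of all genes there were 1.84% and 14.3%. In goblet cells the counts were 4 and 1 of 7 (median 0.14), beside 3.95% and 23.1% of all genes. Slc9a3r1, the PDZ scaffold that binds ezrin, named here after its values were seen, was at 0.12 in enterocytes and 0.24 in goblet cells, where it was in 55.4% of group 1 and 44.9% of group 2, per the authors' deposited table. The adhesion molecule gene Ceacam1 was at -0.41 in stem cells (49.7% of group 1 and 67.0% of group 2) and -0.44 in enteroendocrine cells (26.5% and 47.5%) per the authors' deposited table. Large values in enteroendocrine cells were also those of Krt8, at -0.47, and the myosin light chain gene Myl6, at -0.45, per the authors' deposited table.

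**Figure D3:**
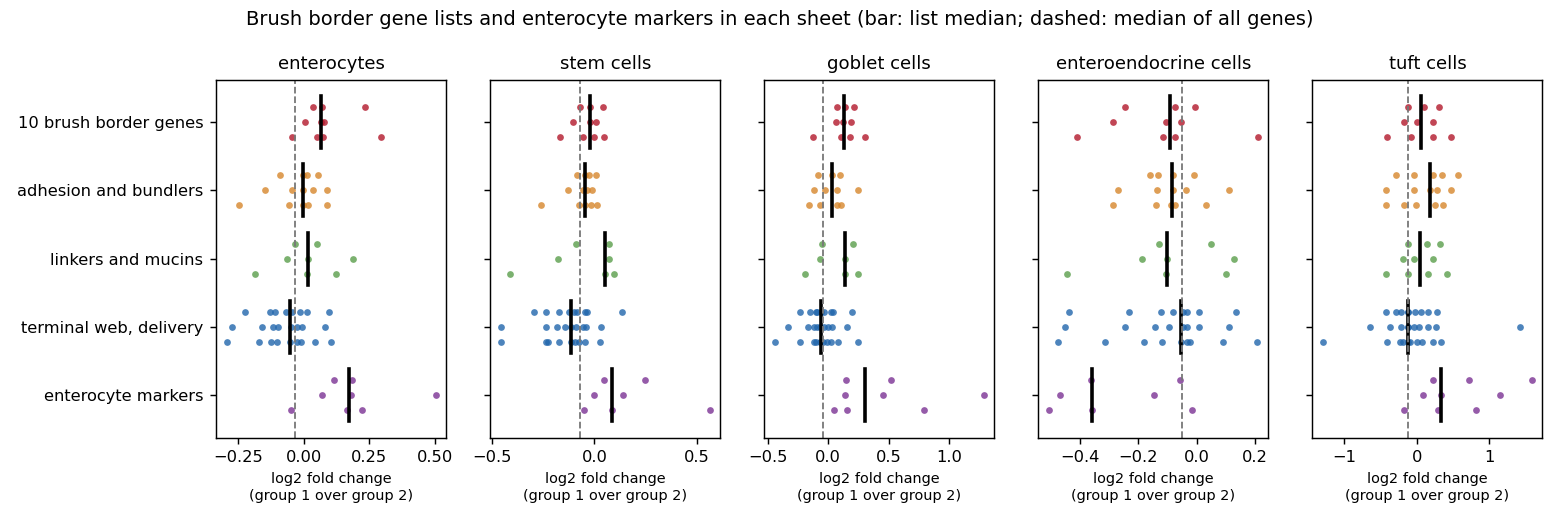
Log2 fold change of group 1 over group 2 (x axis, scaled separately per panel) for the 10 brush border genes, 3 lists of other brush border genes and enterocyte markers, with 1 point per gene, the list median as a bar and the median of all genes dashed. In goblet cells the median is 0.13 for the 10 genes and 0.30 for enterocyte markers, and in enteroendocrine cells -0.09 and -0.36.

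The marker table, which compares cells inside a cluster with all others, listed 9 of the 10 genes, in clusters 1, 3, 5 and 7. Clusters were formed on the same expression values, so these differences are descriptions. Cluster 1, led by Fabp2, Apoa1, Crip1, Clca4a and Guca2b and holding 8 of 10 enterocyte markers, listed 9 of the 10 genes, where 14.4% of the 1669 genes of the table were listed. Their median log2 fold change was 0.95, against 0.44 for all 240 genes of the cluster. Cdhr2 led them at 1.12, detected in 87.2% of cells inside and 40.9% outside, followed by Ezr at 1.02 (82.1% inside and 40.5% outside) per the authors' deposited table. Cdhr5 was at 0.98 (98.5% and 72.9%), Muc3 at 0.96 (89.7% and 59.8%) and Vil1 at 0.95 (99.4% and 79.3%) per the authors' deposited table. The order ended with Pls1 at 0.86 (89.2% and 49.6%), Muc13 at 0.65 (99.6% and 94.2%), Myo1a at 0.63 (89.2% and 65.4%) and Eps8 at 0.37 (47.2% and 27.9%) per the authors' deposited table. Ush1c was listed in no cluster, and the table holds no value below 0.25, so its differences were under that limit or were filtered out.

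Cluster 3, led by Zc3h7a and Itga9, listed 6 of the 10 genes at log2 fold changes between 0.26 (Muc13) and 0.38 (Myo1a) per the authors' deposited table, where 5.39% of genes were listed. Cluster 5, led by AY036118, Cdk8, the mitochondrial ribosomal RNA genes mt-Rnr1 and mt-Rnr2 and the nuclear RNA gene Malat1, listed 5, from 0.30 (Myo1a) to 0.51 (Pls1) per the authors' deposited table, where 4.19% were listed. Of 10 enterocyte markers, cluster 3 listed 3 and cluster 5 listed 4. The part of RNA quality in the values of cluster 5 was not tested. Ezr and Muc3 were listed in cluster 1 alone, and Cdhr5 in the most clusters, 4. The fourth of these was cluster 7, which holds 7 of 8 tuft markers: Cdhr5 was at 0.39 there, detected in 96.0% of cells inside and 79.4% outside, per the authors' deposited table. It was the only one of the 10 genes listed there, where 12.9% of genes were. A gene left out of that list was not thereby rare in tuft cells. Cdhr2 and Myo1a were each in at least 71.4% of both groups of the tuft sheet per the authors' deposited table. Cluster 0 (led by Lypd8 and Reg3b), cluster 2 (2 of 6 stem and 2 of 4 proliferation markers), cluster 4 (8 of 8 goblet markers) and cluster 6 (8 of 9 enteroendocrine markers) listed none of the 10, where 7.61%, 45.6%, 16.9% and 18.6% of genes were listed.

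**Figure D4:**
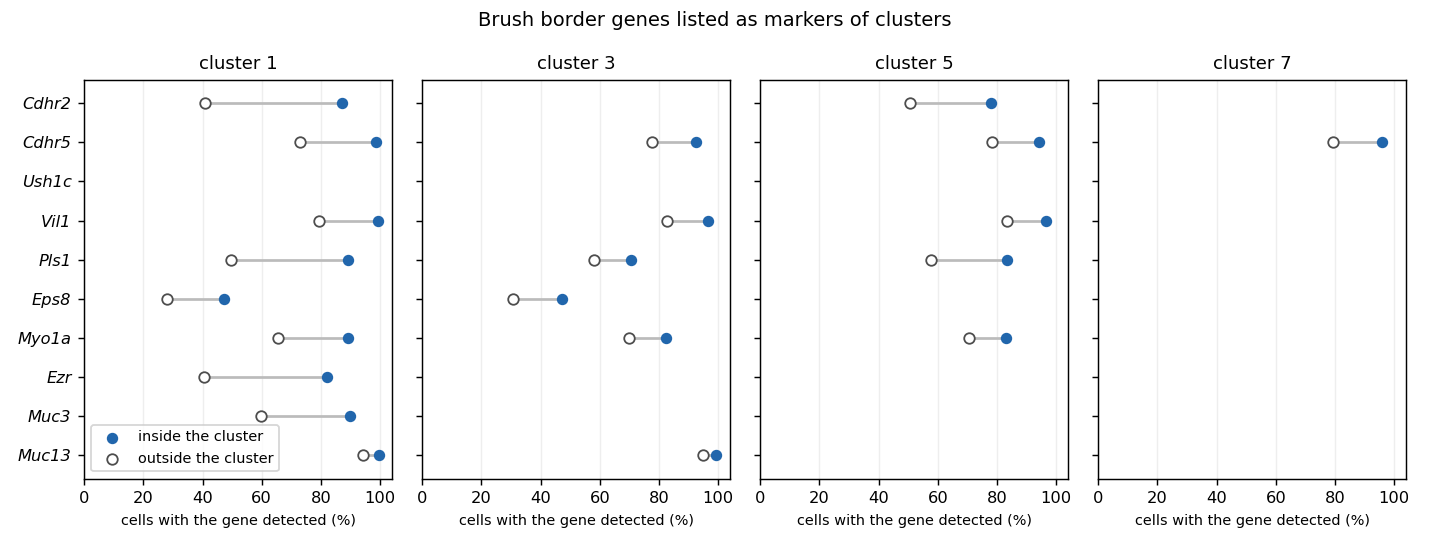
Share of cells with each gene detected (percent, x axis) inside (filled) and outside (open) the 4 clusters that list any of the 10 brush border genes, with no point where a gene is not listed. The widest gap in cluster 1 is that of Cdhr2, at 87.2% inside and 40.9% outside, and Muc13 has the narrowest, at 99.6% and 94.2%.

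Other brush border genes were listed in all 8 clusters, in different groups. Cluster 1 listed 16 of them, among which Tmigd1 was at 1.19 (85.9% inside and 39.9% outside), Slc9a3r1 at 1.13 (91.0% and 50.3%) and Espn at 0.82 (77.4% and 32.7%) per the authors' deposited table. Cluster 0 listed 5, all of the terminal web list: Krt19 at 1.04, Krt8 at 0.47, Myl6 at 0.45, Myl12b at 0.40 and Cfl1 at 0.26 per the authors' deposited table. Cluster 2 listed Actg1 at 0.45, Pfn1 at 0.33 and Cfl1 at 0.28 per the authors' deposited table. In the tuft marker cluster 7, Avil, the villin family member advillin, was detected in 60.0% of cells inside and 0.4% outside with 1.18, and Espn in 76.0% and 44.1% with 0.83, per the authors' deposited table. Muc3a was listed in cluster 4, not in cluster 1, at 0.36 with 29.2% inside and 4.0% outside per the authors' deposited table, so Muc3 and Muc3a were markers of different clusters.

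The genes whose detection was most like that of 3 members were found by Euclidean distance over the 10 detection shares of the 5 sheets, among 2477 genes listed in all of them. Nearest to Cdhr2 were Spink1 (distance 42.4 percentage points), Myh14 (42.5) and Myo15b (44.5). Smim24 (18.3), Fgfr2 (24.3) and Edf1 (25.9) were nearest to Vil1, and Epcam (19.4), Crip1 (21.8) and Cldn7 (22.6) to Muc13. Over the 5 log2 fold changes, the nearest to Cdhr2 was the brush border metalloprotease gene Mep1a (distance 0.18), followed by Phgr1 (0.20) and Nos2 (0.23). Vil1 was nearest to Tcf7l2 (0.08), Plekha7 (0.09) and Mark2 (0.10), and Muc13 to Tbrg1 (0.09), Epn1 (0.10) and Asap1 (0.11). Fold changes were not scaled per sheet for these distances. The tuft sheet, with the widest spread and few cells, can thus weigh most in them.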

How the data were processed

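One pooled inDrops sample per genotype was used through tables the authors had already computed. Per the submitters' processing notes, the tools were DESeq2 1.30.1, Seurat and Cell Ranger with build mm10, and no role is given for each. The deposited sheets of 5 cell types hold a log2 fold change of group 1 over group 2 and the fraction of cells of each group in which a gene was detected, printed here as a percent. The deposited marker table holds the same quantities inside over outside each of 8 clusters, and lists log2 fold changes from 0.25 upward. The deposited p-values were computed by the authors over single cells and were not used. The deposited library sheet gave ages and planned cell numbers. Cell filters, doublet treatment and cell type assignment are not given in the sources used here.

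Rows of the 10 genes were taken by symbol, and 1 row with no symbol was left out of each sheet. With 1 sample per genotype nothing was tested. Genes at or past a log2 fold change of 0.10 in either direction were counted, beside the same share of all genes. The counting and recentring steps were run on simulated sheets with planted differences, which checks the code and says nothing about the counts here. The alternatives were a fold of 0.25, 2 other zero points (the median of all genes, and that of genes seen in 70% or more of each group), a detection floor of 25% of one group and, for cluster markers, a fold of 0.50. Python 3.11.15, pandas 2.3.3 and matplotlib 3.10.9 were used. All members were named, with up to 4 other brush border genes per cell type by absolute fold change at that detection floor and the 3 nearest genes by likeness. The members and lists were chosen with earlier results of these data known.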

Additional observations from a re-analysis of the deposited data

Results flagged for a closer look

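Of the 10 genes, 3 had fold changes past 0.10 in opposite directions in different cell types; with 1 sample per genotype the difference was not tested. Cdhr5 was at 0.18 in goblet cells and at -0.25 in enteroendocrine cells per the authors' deposited table. Eps8 was at 0.14 in goblet cells and at -0.41 in enteroendocrine cells per the authors' deposited table. Pls1 was at 0.19 in goblet cells and 0.22 in tuft cells, and at -0.29 in enteroendocrine cells, per the authors' deposited table. The enterocyte markers Apoa1 and Anpep had the same signs per the authors' deposited table, at 1.29 and 0.45 in goblet cells and at -0.36 and -0.47 in enteroendocrine cells, and their part in these differences was not tested.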

How the results depend on the processing

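With a fold of 0.25 in place of 0.10, the higher side held 1 of the 10 genes for enterocytes, 1 for goblet, 0 for enteroendocrine and 2 for tuft cells, and the lower side 0 for stem, 0 for goblet, 2 for enteroendocrine and 1 for tuft cells. Set against the median of all genes, 5 of the 10 were at or above 0.10 for enterocytes and 2 for stem cells, and 0 were at or below -0.10 for stem, 0 for goblet, 3 for enteroendocrine and 1 for tuft cells. The median of the 10 became 0.0477 (stem) and 0.17 (tuft). Against genes seen in 70% or more of each group, 8 were on the higher side for enterocytes, 8 for stem and 9 for tuft. On the lower side were 0 for stem, goblet and tuft cells, but 7 for enteroendocrine cells. The median of the 10 was 0.175 (stem), 0.23 (goblet), 0.38 (tuft) and -0.12 (enteroendocrine). With this last zero point 4 single values past the fold reversed, Ush1c to 0.0908 (stem) and 0.15 (tuft) and Muc13 to 0.0283 (stem) and 0.20 (tuft). Direction and side of the fold were kept by 28 of the 50 single values against the median of all genes and by 22 of the 50 against the other zero point. With a marker fold of 0.50, cluster 3 listed 0 of the 10, cluster 5 listed 1 and cluster 7 listed 0. No paired analysis was possible because each genotype has 1 sample. Cell numbers and depth are not given. The coarse detection shares of the enteroendocrine and tuft sheets mean few cells, which limits their values most.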

Other observations

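Fold changes in the tuft and enteroendocrine sheets took few values: 353 distinct values over 6764 tuft genes and 715 over 5286 enteroendocrine genes, against 3371 over 3425 enterocyte genes. Myo1a shared its tuft value with 20 other genes and Cdhr5 its enteroendocrine value with 10. A share of 0 on one side was given for 2815 tuft genes and 245 enteroendocrine genes, and for 0 genes of the other sheets. The tuft and enteroendocrine genes at that share still had a finite fold change, so an offset lies behind it. Its size is not given, and the counts past a fold in those sheets depend on it.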
